A study of Arabidopsis thaliana with 6 samples.

Results

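Acetylation of lysine 9 of histone H3 (H3K9Ac) was examined at 10 genes that drive or restrain the plant cell cycle: the D-type cyclins CYCD1;1, CYCD2;1 and CYCD3;1, the B-type cyclin CYCB1;1, the cyclin-dependent kinases CDKA;1 and CDKB1;1, the retinoblastoma-related protein RBR1, the inhibitors KRP1 and KRP2, and the transcription factor E2FA. The genes were chosen by name for their place in the pathway, out of 27444 protein-coding genes of the nuclear chromosomes, and each peak that overlapped the gene body or the 500 bp upstream was taken as a peak of the gene. Chromatin came from whole 3-day-old etiolated seedlings of *ein2-5*, a loss-of-function line of EIN2, a membrane protein needed for the response to ethylene. The seedlings were kept in hydrocarbon-free air, or in the same air with 10 ppm ethylene, for 4 h. Both treatments therefore carried the same *ein2-5* allele, and wild-type seedlings were not analysed here. Each treatment had 2 H3K9Ac ChIP-seq libraries and 1 control library labelled IgG. The libraries of a treatment were pooled before peaks were called, so 1 list of peaks represents each treatment and the spread between replicates is not known.

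Entry of a plant cell into division is controlled by D-type cyclins, which bind CDKA;1 and lead to phosphorylation of RBR1. Phosphorylated RBR1 releases E2F transcription factors, which with their DP partners activate genes of DNA replication. E2FA belongs to this family. KRP proteins bind CYCD-CDKA complexes and hold them inactive. Later in the cycle, B-type cyclins and the plant-specific B-type kinases act at the transition from G2 to mitosis. Many genes of B-type cyclins are switched on by some MYB3R factors through a promoter element called MSA (mitosis-specific activator). H3K9Ac is a mark of active chromatin that in plants lies mainly just downstream of the transcription start site (TSS). In an etiolated seedling the hypocotyl grows mainly by cell expansion, and dividing cells are concentrated in the apical meristems of shoot and root.

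Promoter sequences of 4 of the genes are shown because they hold letters that match a form searched as the MSA element or as the element bound by E2F factors. They can also be set against the positions of the peaks. Whether the matches act in these genes was not tested. The bases just before the TSS were read from the TAIR10.1 genome, 5′ to 3′ on the strand of the gene. CYCB1;1 is shown from chr4:17624309-17624468 (minus strand), KRP1 from chr2:9978091-9978250 (minus strand), KRP2 from chr3:18800146-18800305 (plus strand) and RBR1 from chr3:3919360-3919462 (minus strand), the whole gap to the next gene. Capitals mark a match to a form searched as MSA in CYCB1;1 (CCAACGG) and in KRP1 and KRP2 (TTAACGG). In RBR1 they mark a match to an E2F form.
CYCB1;1: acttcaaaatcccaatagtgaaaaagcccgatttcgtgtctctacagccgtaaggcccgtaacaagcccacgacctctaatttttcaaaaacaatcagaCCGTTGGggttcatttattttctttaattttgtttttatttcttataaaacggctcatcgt
KRP1: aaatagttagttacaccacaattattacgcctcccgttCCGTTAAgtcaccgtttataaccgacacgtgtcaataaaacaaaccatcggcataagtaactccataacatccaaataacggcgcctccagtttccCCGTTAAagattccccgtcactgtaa
KRP2: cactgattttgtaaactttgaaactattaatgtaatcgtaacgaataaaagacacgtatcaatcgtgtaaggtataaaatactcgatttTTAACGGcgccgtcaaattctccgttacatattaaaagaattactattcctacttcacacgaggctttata
RBR1: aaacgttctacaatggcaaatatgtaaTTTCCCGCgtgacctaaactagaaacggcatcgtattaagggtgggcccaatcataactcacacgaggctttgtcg

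MSA elements were searched as CCAACGG, in the form CTAACGG, in the form TCAACGG and in the form TTAACGG, and E2F elements as TTTCCCGC, in the form TTTCGCGC, in the form TTTGCCGC and in the form TTTGGCGC, on both strands of the 500 bp upstream of the TSS. No letters of an MSA form overlap an E2F form in the promoters shown. CYCB1;1 held CCAACGG on the strand opposite to the gene, from -61 to -55 bp from the TSS. KRP1 held TTAACGG on the opposite strand at -122 to -116 and at -26 to -20 bp, and KRP2 held it on its own strand at -71 to -65 bp. RBR1 held TTTCCCGC at -76 to -69 bp. The other 6 genes held neither. An MSA form was thus present in 3 of 10 genes and an E2F form in 1 of 10, and over 27443 coding promoters of the same length the shares were 11.2% and 2.38%. Apart from CYCB1;1, the MSA matches of these genes were all to the form TTAACGG. All 5 matches lay outside every peak of both lists. As only RBR1 had a peak upstream of its TSS, no match at the other genes could have lain in a peak of the gene.

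Sequence under the tallest point of a peak, its summit, is shown for 4 genes whose air summit fell in the first coding exon, as these place the mark on the coding sequence. Each run holds 61 bases on the strand of the gene, with the summit base of the air list as the capital letter. CYCD1;1 is from chr1:26440166-26440226, CYCD3;1 from chr4:16358112-16358172, KRP1 from chr2:9977785-9977845 (minus strand) and KRP2 from chr3:18800617-18800677.
CYCD1;1: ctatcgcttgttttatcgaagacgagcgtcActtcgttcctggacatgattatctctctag
CYCD3;1: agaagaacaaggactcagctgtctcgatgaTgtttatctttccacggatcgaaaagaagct
KRP1: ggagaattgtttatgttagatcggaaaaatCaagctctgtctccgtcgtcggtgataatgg
KRP2: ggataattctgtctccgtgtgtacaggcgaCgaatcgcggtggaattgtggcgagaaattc

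H3K9Ac peaks were found at 7 of the 10 genes in air, and the same 7 had a peak in ethylene. They were CYCD1;1, CYCD2;1, CYCD3;1, CDKA;1, RBR1, KRP1 and KRP2. Of all coding genes, 60.9% had a peak in air by the same rule, 46% had one in ethylene and 45.8% had one in both lists. Among coding genes within the range of lengths of the 10 genes, a range chosen after seeing the data, the shares were 69.8% in air and 53.5% in ethylene. The 70% of the 10 genes with a peak in air was therefore near the share of genes of like length. CYCB1;1, CDKB1;1 and E2FA had no peak in either list. In whole seedlings, fewer cells that carry a mark and less of the mark per cell cannot be told apart.

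**Figure D1:**
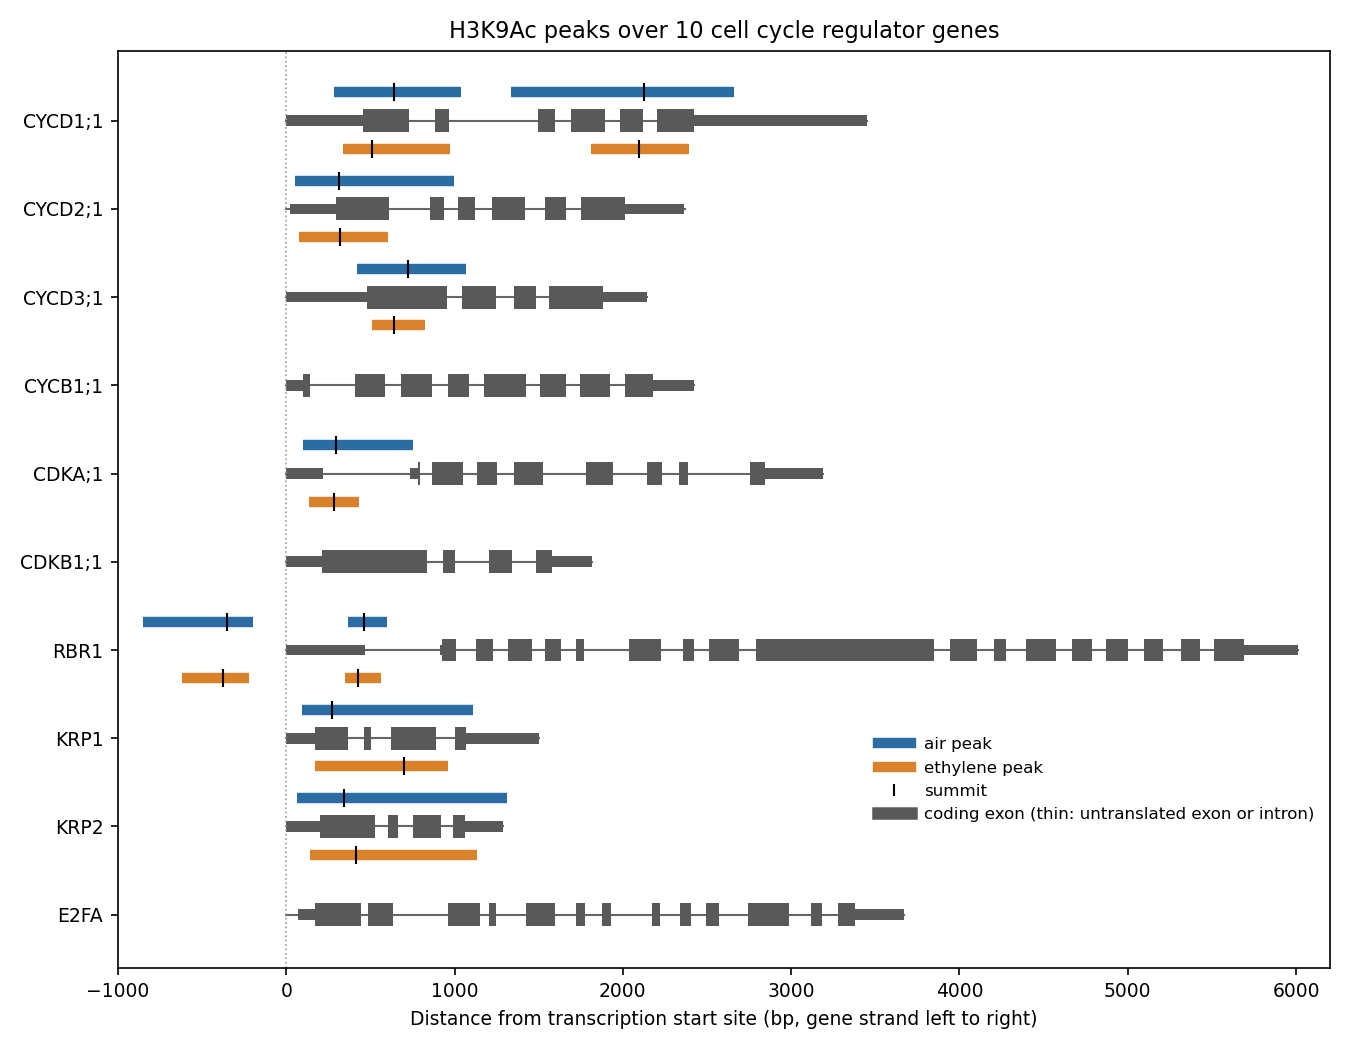
Position of H3K9Ac peaks at the 10 genes, in bp from the TSS with the gene read from left to right, with air peaks in blue above and ethylene peaks in orange below each gene model, and summits as black ticks. Of 9 peaks in each list, 8 began downstream of the TSS and the other was the upstream peak at RBR1, and CYCB1;1, CDKB1;1 and E2FA had none.

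The 7 genes carried 9 peaks in each list. None of them lay over the TSS itself: 8 of the 9 began inside the gene, from 54 to 1333 bp downstream of the TSS in air and from 78 to 1808 bp downstream in ethylene. The remaining peak, at RBR1, lay wholly upstream. A coding exon lay under 5 of 9 summits in air and 6 of 9 in ethylene. The number of H3K9Ac tags that cover a summit was recovered from the height of the peak. It can reach 400 at most, because 1 tag per position and strand was kept and each tag was extended to 200 bp. The 95% exact binomial (Clopper-Pearson) intervals given with tags cover counting error only, not the spread between seedlings or libraries. Fold enrichment is the height at the summit over the local background taken from the control. No interval was computed for the background or the fold enrichment. The ethylene background rests on fewer control tags, 4354374 kept against 13726993 in air.

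Among the D-type cyclins, which link growth signals to cell cycle entry, CYCD1;1 had the broadest mark. CYCD1;1 (AT1G70210, chr1:26439556-26443007, plus strand) carried a first peak over its first coding exon, chr1:26439837-26440592 in air and chr1:26439896-26440532 in ethylene, with lengths of 756 and 637 bp. The summit, at position 26440196 in air and 26440068 in ethylene, had 293 tags in air (275 to 310.1) and 284 in ethylene (265 to 302), and the fold enrichment was 3.19 and 2.26. A second peak covered the middle of the gene, chr1:26440889-26442214 in air and chr1:26441364-26441949 in ethylene. It was 1326 and 586 bp long, with 220 tags (199.9 to 239.8) and 218 tags (198 to 238). Its summit fell in intron 5 in air (position 26441684, 2128 bp from the TSS) and in coding exon 5 in ethylene (position 26441651, 2095 bp from the TSS). Summed over both peaks, CYCD1;1 had 2082 bp of marked chromatin in air, a value above that of 98.1% of coding genes with a peak, and 1223 bp in ethylene. Each of its summits had nearly the same number of tags in both treatments, within overlapping intervals.

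CYCD2;1 (AT2G22490, chr2:9553797-9556167, minus strand) had 1 peak, chr2:9555168-9556113 in air and chr2:9555560-9556089 in ethylene. The peak was 946 bp long in air against 530 bp in ethylene. Its summit, at position 9555852 in air and 9555849 in ethylene, lay in the first coding exon, 315 and 318 bp from the TSS, with 289 tags (270.3 to 306) and 299 tags (281 to 316). The fold enrichment was 2.67 in air and 2.06 in ethylene, so the tags were slightly more and the enrichment lower in ethylene. The background at the summit, on the scale of tags, was 106 in air and 140.1 in ethylene.

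CYCD3;1 (AT4G34160, chr4:16357421-16359565, plus strand), which responds to cytokinin and brassinosteroid, had fewer tags at its summit than CYCD1;1 and CYCD2;1 in both lists. Its peak, chr4:16357839-16358489 in air and chr4:16357931-16358243 in ethylene, was 651 bp and 313 bp long. The summit, at position 16358142 in air and 16358064 in ethylene, lay in coding exon 1, 721 and 643 bp from the TSS. It had 185 tags (165 to 205) in air and 198 tags (178 to 218) in ethylene, and the fold enrichment was 1.72 in air and just under 2 in ethylene. Only 13.8% of air peaks and 4.77% of ethylene peaks had fewer tags. CYCD3;1 lost its peak in both lists when a fold enrichment of at least 2 was required, in air when the air list was shortened to the length of the ethylene list, and in ethylene when the window was 500 bp to either side of the TSS.

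CDKA;1 (AT3G48750, named CDC2 in RefSeq, chr3:18071454-18074641, plus strand), the partner kinase of the D-type cyclins, had 1 peak at its 5′ end. The peak, chr3:18071552-18072210 in air and chr3:18071587-18071887 in ethylene, was 659 and 301 bp long. The summit fell in the intron within the 5′ UTR in both lists, at positions 18071750 and 18071738, which lie 296 and 284 bp from the TSS. It had 305 tags in air (287 to 321) and 294 in ethylene (276 to 311), and the fold enrichment was 2.32 and 2.17. Even in air the peak ended 756 bp from the TSS, before the start codon at 784 bp.

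RBR1 (AT3G12280, chr3:3913349-3919359, minus strand), the repressor that D-type cyclin kinases inactivate, had 1 peak on either side of its TSS. The taller peak lay upstream, chr3:3919556-3920210 in air and chr3:3919583-3919979 in ethylene, of 655 and 397 bp. It overlapped the divergent neighbour AT3G12290, annotated as an amino acid dehydrogenase family protein. Its air summit, at position 3919713, lay 354 bp upstream of the RBR1 TSS and 250 bp inside the neighbour, with 318 tags (301 to 333), and the ethylene summit, at position 3919737, had 314 tags (297 to 329.7). The peak within RBR1 was small, 237 bp in air (chr3:3918758-3918994) but 210 bp in ethylene (chr3:3918798-3919007). Its summits, at positions 3918895 and 3918931, lay near the end of the untranslated first exon, with 197 tags (177 to 217) and 211 tags (191 to 231). Its fold enrichment was 1.40 and 1.84, and its −log10 p-value was 2.29 and 2.65, near the threshold p of 0.01 for a peak to be listed. The E2F match shown above lay in the gap between the peaks.

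Under the stricter rules on enrichment and q-value, RBR1 stayed among the marked genes only by its upstream peak. Counting only peaks with a summit inside the gene body left 7 genes in each list, RBR1 by its small peak. With a fold enrichment of at least 2 required as well, 5 genes were left in each list, without RBR1 and CYCD3;1, and with a q-value of at most 0.05 required as well, 6 were left, without RBR1. Of all coding genes, 46.0% in air and 31.0% in ethylene passed the first of these stricter counts, and 57.5% and 38.0% passed the second. The rules on the summit were chosen after seeing the data.

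The KRP inhibitors had the tallest peaks of the 10 genes. KRP1 (AT2G23430, named ICK1 in RefSeq, chr2:9976590-9978090, minus strand) carried 1 peak, chr2:9976982-9977994 in air and chr2:9977129-9977917 in ethylene, with lengths of 1013 and 789 bp. Its summit had 371 tags in air (359 to 380.4) and 364 in ethylene (351 to 374), close to the ceiling of 400, and 98.6% of air peaks and 96.4% of ethylene peaks had fewer. The summit lay in coding exon 1 in air (position 9977815, 275 bp from the TSS) and in coding exon 3 in ethylene (position 9977390, 700 bp from the TSS). At the other 8 peaks the summits of both lists were closer together than this gap of 425 bp, and the median gap of the 9 was 36 bp. The fold enrichment was 2.89 in air and 2.34 in ethylene.

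KRP2 (AT3G50630, chr3:18800306-18801595, plus strand) was covered nearly from end to end. Its air peak, chr3:18800373-18801618, ran from 67 to 1312 bp from the TSS, 1246 bp in all, in a gene of 1290 bp, and its ethylene peak, chr3:18800450-18801437, was 988 bp long. The summit lay in coding exon 1, at position 18800647 in air and 18800720 in ethylene, 341 and 414 bp from the TSS, with 340 tags in each list (324 to 353). The fold enrichment was 3.40 in air, the highest of the 10 genes, and 2.06 in ethylene. The background at the summit was 97.6 tags in air and 160.1 in ethylene, so the listed enrichment differed while the tags did not. The counting error of the background was not computed. By p-value the air peak ranked 425 of 18314.

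The order of summit tags in air was KRP1, KRP2, the upstream peak of RBR1, CDKA;1, the first peak of CYCD1;1, CYCD2;1, the second peak of CYCD1;1, the peak within RBR1 and CYCD3;1. The intervals of neighbours in this order did not overlap between KRP1 and KRP2, nor between CYCD2;1 and the second peak of CYCD1;1. All other neighbours had overlapping intervals.

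**Figure D2:**
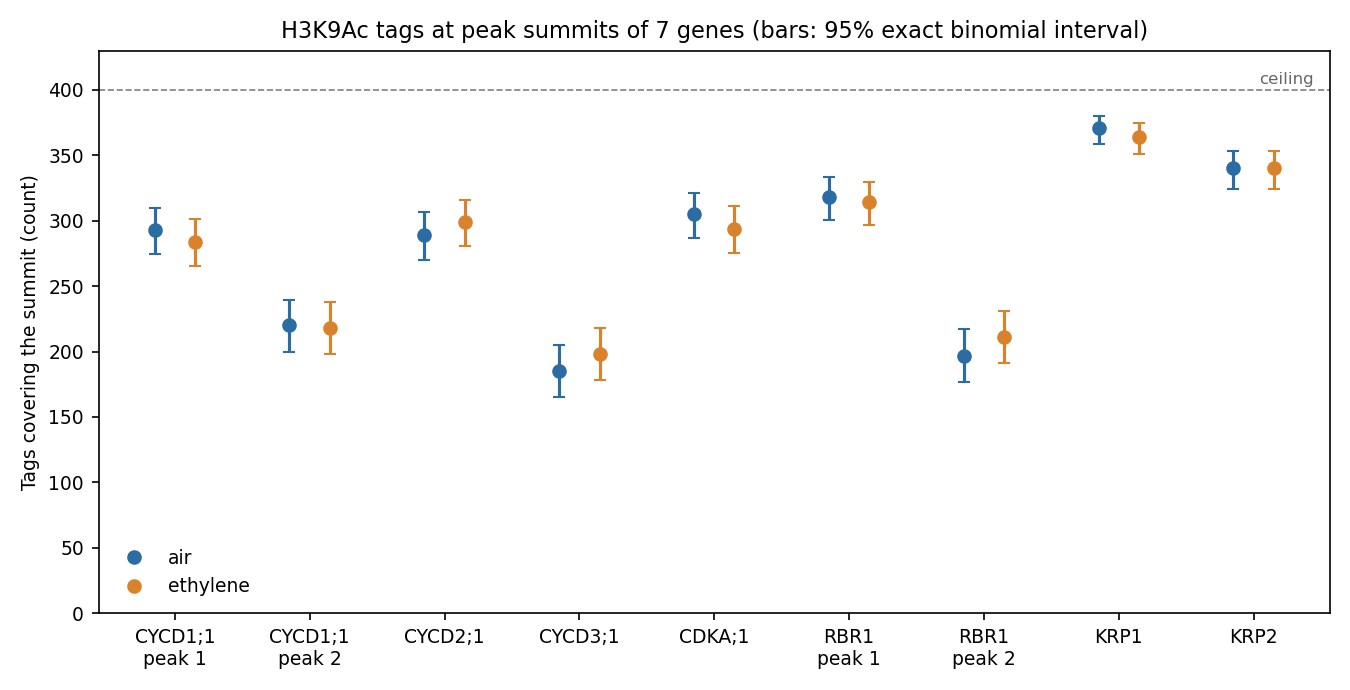
H3K9Ac tags covering the summit of each of the 9 peaks (vertical axis, count), with air in blue, ethylene in orange and bars for the 95% exact binomial interval. The dashed line is the ceiling of 400 tags, and the intervals of air and ethylene overlap at every peak, with tags between 185 and 371 in air and between 198 and 364 in ethylene.

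The 3 genes without a peak were a mitotic cyclin, a mitotic kinase and an E2F factor. CYCB1;1 (AT4G37490, chr4:17621886-17624308, minus strand), whose protein appears from G2 to mitosis, was 1806 bp away from the nearest air peak and 2198 bp from the nearest ethylene peak. Both lay downstream, over AT4G37480, a chaperone of the DnaJ family, with 366 and 372 tags. CDKB1;1 (AT3G54180, chr3:20059671-20061488, plus strand), a kinase of G2 and mitosis, was 1952 and 2267 bp from the nearest peaks, over AT3G54190, with 298 and 299 tags. E2FA (AT2G36010, named E2F3 in RefSeq, chr2:15119516-15123184, plus strand), an activator of genes for DNA replication, was 1487 and 1543 bp from the nearest peaks, upstream over AT2G36000 (EMB3114), with 313 and 310 tags. The nearest peaks of these 3 genes thus lay over a neighbour, from 1487 to 2267 bp away. No such distances are given for other genes without a peak, so this cannot be called particular to these 3. A gene without a listed peak may still carry H3K9Ac below the threshold of the lists, so these are not values of 0. Of all coding genes, 38.9% had no peak in either list.

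All 7 marked genes had less peak breadth in ethylene than in air. The fall was 859 bp at CYCD1;1, 416 bp at CYCD2;1, 358 bp at CDKA;1, 338 bp at CYCD3;1, 285 bp at RBR1, 258 bp at KRP2 and 224 bp at KRP1. The median difference was -338 bp, and the median breadth went from 946 bp in air to 607 bp in ethylene. Of the coding genes with a peak in both lists, 96.7% were narrower in ethylene, with a median difference of -259 bp, so the direction at the 7 genes was that of nearly all genes. In proportion, KRP2 and KRP1 kept most, with 79.3% and 77.9% of their air breadth, and CDKA;1 and CYCD3;1 least, with 45.7% and 48.1%, beside a median of 65% over coding genes. For RBR1, the peak inside the gene alone went from 237 to 210 bp.

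**Figure D3:**
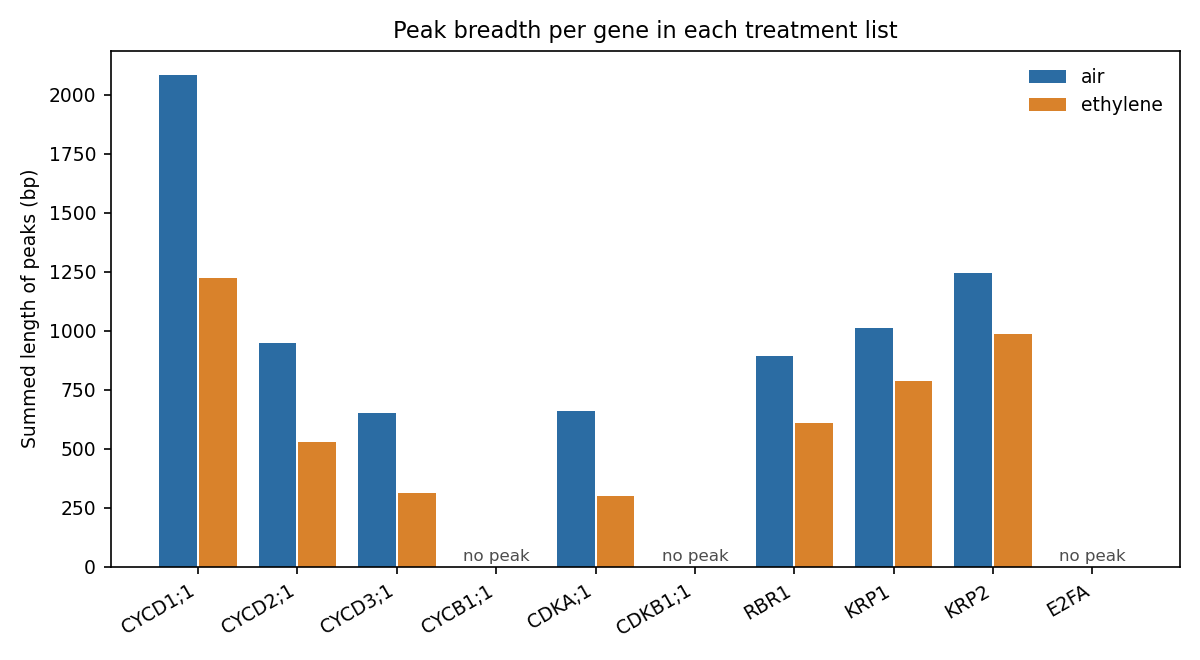
Summed length of the peaks of each gene (vertical axis, bp) in air (blue) and ethylene (orange), 1 pooled list per treatment and therefore without error bars. All 7 marked genes are narrower in ethylene, by 224 to 859 bp, and 3 genes have no peak.

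The heights of the peaks did not differ in the same way. Each of the 9 air peaks met exactly 1 ethylene peak, and 8 of the 9 ethylene peaks lay wholly within the air peak, the peak inside RBR1 being the exception. From air to ethylene the tags at the summit changed by -11 to 14, being lower at 5 peaks, higher at 3 and equal at KRP2. Taken as shares of all H3K9Ac tags kept in each treatment, and corrected for the ceiling, the ratio of ethylene to air ran from 0.960 at KRP1 to 1.16 at the peak inside RBR1, with a median of 1.03. In between, the ratio was 0.966 at CDKA;1, 0.982 and 1.03 at the first and second peaks of CYCD1;1, 1.01 at the upstream peak of RBR1, 1.05 at KRP2, 1.12 at CYCD2;1 and 1.15 at CYCD3;1. At 0 of the 9 peaks did the 95% interval of the ratio, from counting error alone, leave out 1, and this occurred at 5.63% of 11700 such pairs over the genome. The intervals were wide enough to allow sizeable differences, from 0.854 to 1.21 at the upstream peak of RBR1 and from 0.939 to 1.41 at CYCD3;1. Over genes, with the tallest peak of each, the median ratio was 1.01 (range 0.960 to 1.15, n = 7 genes), beside 1.04 over 12582 coding genes.

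The ethylene control library was shallower, and its part in the narrower peaks was not tested by calling peaks again. The peak caller scaled the H3K9Ac tags down to the control, by 0.301 in air and 0.0999 in ethylene. The height needed to pass the threshold, computed from the background at the summit, stood in the median at a larger part of the summit in ethylene. At the 9 peaks it had a median of 52.9% of the summit in air and 76.5% in ethylene. Over all pairs the medians of the genome were of like size, 55.7% and 74.9%. At KRP2 it was 42.0% in air and 76.5% in ethylene, and at the peak inside RBR1 97.8% and 90.1%. The fold enrichment was lower in ethylene at 7 of the 9 peaks and higher at CYCD3;1 and the peak inside RBR1, the 2 where the background at the summit was lower in ethylene.

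The lists rest on 45582654 H3K9Ac tags kept of 63192903 in air and 43572576 of 61025284 in ethylene, and on 13726993 and 4354374 control tags kept. The air list holds 18314 peaks with a median length of 578 bp, and the ethylene list 12864 with a median of 423 bp. Of 14 marker genes of seedling tissues and pollen, the air list covered 6 and the ethylene list 5. The shoot meristem genes STM, WUS and CLV3, the root meristem genes PLT1, PLT2 and WOX5, the vascular gene ATHB8 and the pollen gene VGD1 had none. A peak in both lists was found at KNAT1 (shoot meristem), SCR (root meristem), ATML1 and PDF1 (epidermis) and SUC2 (phloem). SHR, also taken as a root meristem marker, had a peak in air only. Of the genes taken as meristem markers, KNAT1, SCR and SHR thus had a peak in at least 1 list. STM, WUS, CLV3, PLT1, PLT2 and WOX5 had none in either list. Whether KNAT1, SCR and SHR are confined to meristems was not examined. The share of dividing cells in these whole-seedling libraries was not measured, and its part in the absence of peaks at CYCB1;1, CDKB1;1 and E2FA was not tested.

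The other genes of the pathway, 87 in 9 lists, had a peak in 43 cases in air (49.4%) and 27 in ethylene (31.0%), below the shares of all coding genes given above. All 27 also had a peak in air, and 25 of them were narrower in ethylene. With a fold enrichment of at least 2, 32 were left in air and 16 in ethylene. The 10 genes together with these made 50 of 97 in air and 34 of 97 in ethylene.

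**Figure D4:**
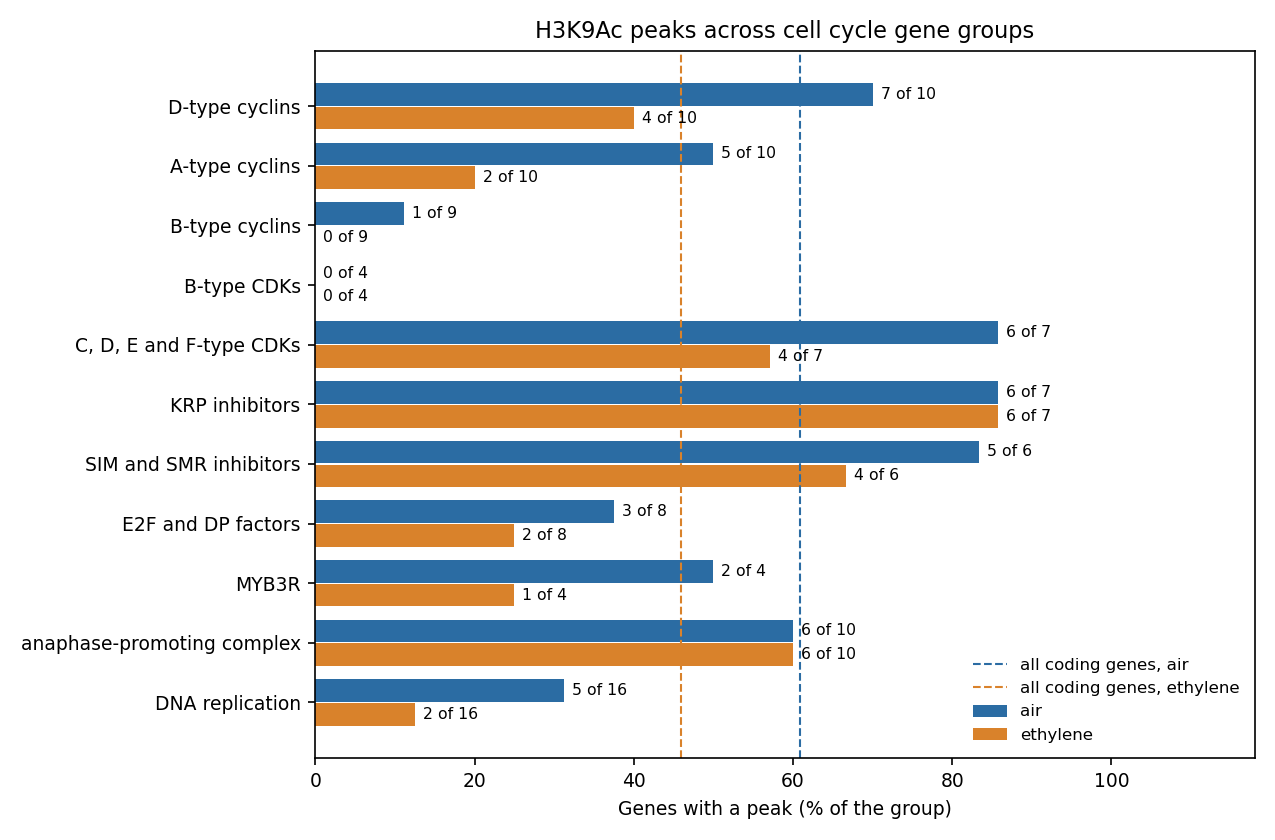
Share of genes with an H3K9Ac peak (horizontal axis, percent) in 11 groups of cell cycle genes, in air (blue) and ethylene (orange), with counts beside the bars and dashed lines at the shares of all coding genes. KRP inhibitors stand at 6 of 7 in both lists, B-type cyclins at 1 of 9 in air and B-type CDKs at 0 of 4.

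D-type cyclins were marked in 7 of 10 cases in air but 4 of 10 in ethylene. Of the 7 others, CYCD3;3 was the broadest with 715 bp in air and CYCD4;2 the narrowest with 261 bp, and neither had a peak in ethylene. CYCD4;1, CYCD6;1 and CYCD7;1 had no peak in either list. The D-type cyclins described above therefore made 3 of the 4 with a peak in both lists, the other being CYCD3;2. A-type cyclins, which act from S phase to mitosis, were marked in 5 of 10 cases in air and 2 of 10 in ethylene. In air CYCA3;4 was the broadest, with 666 bp, and CYCA3;1 the narrowest, with 282 bp. In ethylene the former had 351 bp, less than CYCA3;2 with 464 bp. CYCA1;1, CYCA1;2, CYCA2;1, CYCA2;2 and CYCA3;3 had none.

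B-type cyclins were almost without peaks, in 1 of 9 cases in air and 0 of 9 in ethylene. The exception was CYCB2;4, with 618 bp in air, and its summit lay 749 bp upstream of the TSS, outside the gene. CYCB1;1, CYCB1;2, CYCB1;3, CYCB1;4, CYCB2;1, CYCB2;2, CYCB2;3 and CYCB3;1 had no peak in either list. An MSA form was present in the promoters of 7 of the 9 B-type cyclins (77.8%), CYCB1;1 included, beside 11.2% of all coding promoters. The B-type kinases CDKB1;1, CDKB1;2, CDKB2;1 and CDKB2;2 had a peak in 0 of 4 cases in both lists. Of their promoters, 1 of 4 held an MSA form, that of CDKB2;2. The C-, D-, E- and F-type kinases, which act on transcription or activate other kinases, were marked in 6 of 7 cases in air and 4 of 7 in ethylene. Among these kinases and their partners in air, CDKF;1, a kinase that activates other CDKs, was the broadest with 718 bp, and CDKD;3 the narrowest with 240 bp. In ethylene the former had 411 bp, and 2 other kinases were broader, CDKD;2 with 434 bp and CDKE;1 with 417 bp. CDKD;1, CKS2 and WEE1 had no peak.

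Of the 9 lists, that of the other CDK inhibitors had the largest share of marked genes, 9 of 11 in air and 8 of 11 in ethylene. With KRP1 and KRP2 included, KRP genes had a peak in 6 of 7 cases in both lists, with KRP3 as the exception, and SIM and SMR genes, inhibitors known for their role in endoreduplication, in 5 of 6 cases in air and 4 of 6 in ethylene. In air KRP4 had the broadest peaks of the inhibitors, with 2192 bp, and SMR5 the narrowest, with 243 bp. In ethylene KRP4 had 737 bp, less than SIM (1068 bp), KRP2 and KRP1. SMR4 had none. The median breadth of marked KRP genes was 953 bp in air and 616.5 bp in ethylene, beside 678 and 468 bp over marked coding genes. The differences between lists were not tested.

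E2F and DP factors were marked in 3 of 8 cases in air and 2 of 8 in ethylene. DPB, a dimer partner, was the broadest with 581 bp in air against 538 bp in ethylene, and E2FB, a second activating E2F, the narrowest with 434 bp in air. E2FA, E2FC and the atypical factors DEL1, DEL2 and DEL3 had no peak. Of the 4 MYB3R factors, MYB3R1 had 476 bp in air only, MYB3R3 had 441 bp in air against 516 bp in ethylene, and MYB3R4 and MYB3R5 had none.

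Subunits and activators of the anaphase-promoting complex, which marks mitotic cyclins for destruction, were marked in 6 of 10 cases in both lists. APC11 had 2545 bp in air against 1526 bp in ethylene and HBT 371 and 312 bp, while CDC20.1, CDC20.2, CCS52A2 and CDC27A had no peak. The tallest APC11 summit lay past the 3′ end of the gene, 2912 bp from the TSS in air and 2864 bp in ethylene. Genes of DNA replication, the targets of E2F, were marked in 5 of 16 cases in air and 2 of 16 in ethylene. MCM7 was the broadest with 1597 bp in air against 1098 bp in ethylene, and ORC1B the narrowest with 345 bp in air, where the summit lay 337 bp upstream of its TSS. MCM2, MCM3, MCM5, MCM6, PCNA2, CDT1A, CDT1B, CDC6A, ORC1A, ORC2 and RNR1 had none. In air the tallest PCNA1 summit lay 379 bp upstream of the TSS. Those of MCM7, TSO2 and MCM4 lay 150, 1259 and 4158 bp downstream of it. An E2F form was present in the promoters of 5 of the 6 MCM genes, which encode the replicative helicase, and 2 of the 6 had a peak in air. Over the 87 genes, an E2F form was present in 8 of 44 without an air peak and 2 of 43 with one, and an MSA form in 10 of 44 and 7 of 43. Over all coding promoters, an E2F form was present in 2.49% without an air peak and 2.31% with one, and an MSA form in 9.48% and 12.3%, so for MSA the order over all genes was the reverse. None of these contrasts was tested.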

How the data were processed

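Per the labels and the methods of the study, the authors mapped single-end reads to TAIR10 with Bowtie 1.1.2, combined both H3K9Ac libraries of each treatment and ran MACS2 2.1.0.20150603 with a p-value limit of 0.01 and no fragment model. The deposited lists give peak positions and lengths, the pileup signal at the summit (scaled to the smaller data set), a fold enrichment (a ratio over local background), and −log10 p-values and q-values. Their headers say that q-values were not calculated, but the column holds values, used only for a stricter threshold.

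Tags were the signal divided by the scaling factor, whole within 0.05 for 100% of peaks. For ratios, the tags lost to the ceiling were added back by taking the negative natural log of the fraction of the 400 positions left empty. The height needed to pass the threshold assumed the Poisson background of the summit. Genes came from RefSeq TAIR10.1, and 107 of 111 list names matched its symbols or synonyms. The TSS is the outermost gene end. To check coordinates, 63.9% of air peaks lay over a coding TSS region, against 42.9% and 41.8% after shifts of -250 and 250 bp. Python 3.11.15, pandas 2.3.3 and scipy 1.17.1 were used, and steps were tested on simulated data.

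With pooled lists no test between treatments was possible. The genes and lists were chosen with earlier results of these data known. Named from each list were the broadest and narrowest gene in air and all without a peak, and neighbours under a peak of the 10 genes. CYCD3;2, CYCA3;2, CDKD;2, CDKE;1, SIM, PCNA1, TSO2 and MCM4 were named after their values were seen. Alternatives covered thresholds, windows, assignment and measures.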

Additional observations from a re-analysis of the deposited data

How the results depend on the processing

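No paired analysis was possible because the libraries of a treatment were pooled before peaks were called, and no replicate could be left out for the same reason. Of 62 alternative values, 49 were classed as like the main one, 13 as moved and 0 as reversed. Values classed as like the main one were not all equal to it. They include a fall from 7 to 5 genes with a peak, with the summit in the gene body and a fold enrichment of at least 2. A background share that went from 60.9% to 57.8% was classed as moved. The 7 genes with a peak became 6 under a fold enrichment of at least 2 (both lists), in the air list cut to the ethylene length, and in ethylene within 500 bp of the TSS, each time without CYCD3;1. The marked genes were narrower in ethylene under every alternative run, except CYCD3;1 with the shortened air list, and the median difference lay between -258 and -338 bp. The ratio of fold enrichments in place of tags had a median of 0.808 against 1.01, as the background enters it. It was 1.00 with all tags before duplicates were removed, an alternative added after seeing the data. Other cell cycle genes marked in ethylene went from 27 to 16 at a fold enrichment of at least 2. The background share in air, 60.9%, was 56.0% over all genes, 69.8% in the length range of the 10 genes, 49.8% at a fold enrichment of at least 2, 58.4% within 500 bp of the TSS, 48.3% in the shortened list and 57.8% with the summit in the gene body. In ethylene, 46.0% became 41.6%, 53.5%, 33.9%, 42.7% and 42.9% under the same settings, the shortened list aside. All but the first of these were added after seeing the data. The ceiling of 400 tags limits differences at KRP1 and KRP2, and the threshold of the lists limits what can be said of genes without a peak.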
